A study of Columba livia with 10 samples.

Results

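A set of 8 genes of corticosteroid signalling, FKBP5, NR3C1, NR3C2, KLF9, PLIN2, TSC22D3, SGK1 and ZBTB16, were followed in racing homers, a pigeon breed kept for its return to the loft, by RNA sequencing of the cerebellum. They are 8 of 22547 genes in the deposited tables and 8 of 14172 genes that had enough counts to be tested, so every member was measured. They are the receptors for corticosteroids and known targets of these receptors, and they were chosen by their counts in these same libraries, from the difference between race and control birds and the spread among race birds. All values of the members are therefore given as a description, without a test.

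The race group held 5 birds killed on their return from a competition flight of 300 km, and the control group held 5 rested birds, matched for age, that did not fly in it. All birds came from 1 loft, were fed on a competition schedule, were trained by the widowhood method, and were sedated before cervical dislocation. The exact time between return and death is not given in the sources used here. RNA was read from whole cerebellum, 1 library per bird, as raw counts per gene, and birds are numbered within a group with no pairing between groups.

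Corticosterone, the main glucocorticoid of birds, is released by the adrenal gland under control of the hypothalamus and pituitary. It acts on cells through a pair of nuclear receptors, the glucocorticoid receptor NR3C1 and the mineralocorticoid receptor NR3C2, which in mammals binds the hormone with the higher affinity. Without hormone the receptors sit in the cytosol in a complex with HSP90 and co-chaperones. With hormone they enter the nucleus and switch on genes such as FKBP5, whose product joins the complex and lowers the receptor's affinity for the hormone, a short feedback loop described mainly in mammals.

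Several features of the libraries bear on the values. The library number in the name of 9 of the 10 tables differs from that in the title of the sample it is attached to, and linking tables by title would move 6 of them to the other group. The grouping used below is that of the sample record. Values under the other link are given for the members, the chaperones and the Z-linked median. Most other results are given under the sample record alone, and how they depend on the link is not shown. Control 3, control 4 and control 5 had 93 to 95 W-linked genes at 1 CPM (counts scaled to library size) or more, against 24 to 33 in every race library and in control 1 and control 2. Control 4 held forebrain transcripts, with a summed level of 342 CPM for 7 forebrain markers against 29.9 to 51.6 CPM in the other 9 libraries. Control 1 had the lowest median Spearman correlation to the other libraries, 0.879, and a scaling factor of 0.794. Reads outside features were 15.7% in control 1 and 15.1% in control 2, against 17.8% to 20.8% in the other libraries. Fits without control 3, control 4 and control 5 rest on control 1 and control 2 as controls. The markers of granule cells and Purkinje cells, the defining neurons of the cerebellum, were present in all libraries, at 2876 to 6695 and 1586 to 2509 CPM in sum. Gene counts summed to 17953704 to 23344086 per library.

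FKBP5 stood higher in race than in control birds on average, but in 3 of the 5 race birds and not in the other 2. It reached 90.8, 272, 354, 449.7 and 64.5 CPM in race 1 to race 5, against 87.2, 118, 57.4, 118 and 36.6 CPM in control 1 to control 5. Race 2, race 3 and race 4 lay above every control library, while race 1 and race 5 lay within the control values. The means were 246 ± 166 CPM in race and 83.4 ± 36.2 CPM in control libraries (SD, n = 5 each), and the log2 fold change was 1.56 with an SE of 0.52, larger than that of 99.5% of tested genes.

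The birds' spread was wide. Among race birds the highest level of FKBP5 was 6.98 times the lowest, and among control birds 3.22 times. The SD of log2 CPM was 1.24 in race libraries, larger than for 97.9% of tested genes, and 0.73 in control libraries, larger than for 71.2%. Leaving out 1 library at a time moved the log2 fold change between 1.21, without race 4, and 1.81, without race 5. With only control 1 and control 2 as controls it was 1.26 ± 0.69. With tables linked by sample title it was -0.34 ± 0.66, with means of 145 ± 173 CPM in race and 184 ± 121 CPM in control libraries, so the direction rests on the link.

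ZBTB16, a zinc finger transcription factor that is strongly induced by glucocorticoids in mammalian cells, also stood high in some race birds, but not in the same ones throughout. It was at 41.6, 37.1, 175, 322 and 85.0 CPM in race 1 to race 5, against 89.4, 46.0, 78.3, 55.3 and 21.6 CPM in control 1 to control 5. Race 3 and race 4 lay above every control library, and race 2, which was high for FKBP5, was below 4 of the 5 controls. The means were 132 ± 120 CPM in race and 58.1 ± 26.8 CPM in control libraries (SD, n = 5 each), which gave a log2 fold change of 1.19 ± 0.58. It was 0.54 without race 4, and 0.53 with tables linked by sample title.

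The spread of ZBTB16 among race birds was 8.66-fold from lowest to highest, and its SD of log2 CPM, 1.34, was larger than for 98.3% of tested genes. In the RefSeq annotation of assembly bColLiv1.pat.W.v2 a long non-coding RNA gene, LOC135576276, overlaps ZBTB16. Its counts were 38, 35, 221, 803 and 138 in race 1 to race 5, against 113, 29, 110, 76 and 39 in control 1 to control 5. It was thus highest in the same 2 libraries as ZBTB16. The strand setting of the counting is not given in the sources used here, so how reads were assigned where both genes overlap cannot be checked.

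**Figure D1:**
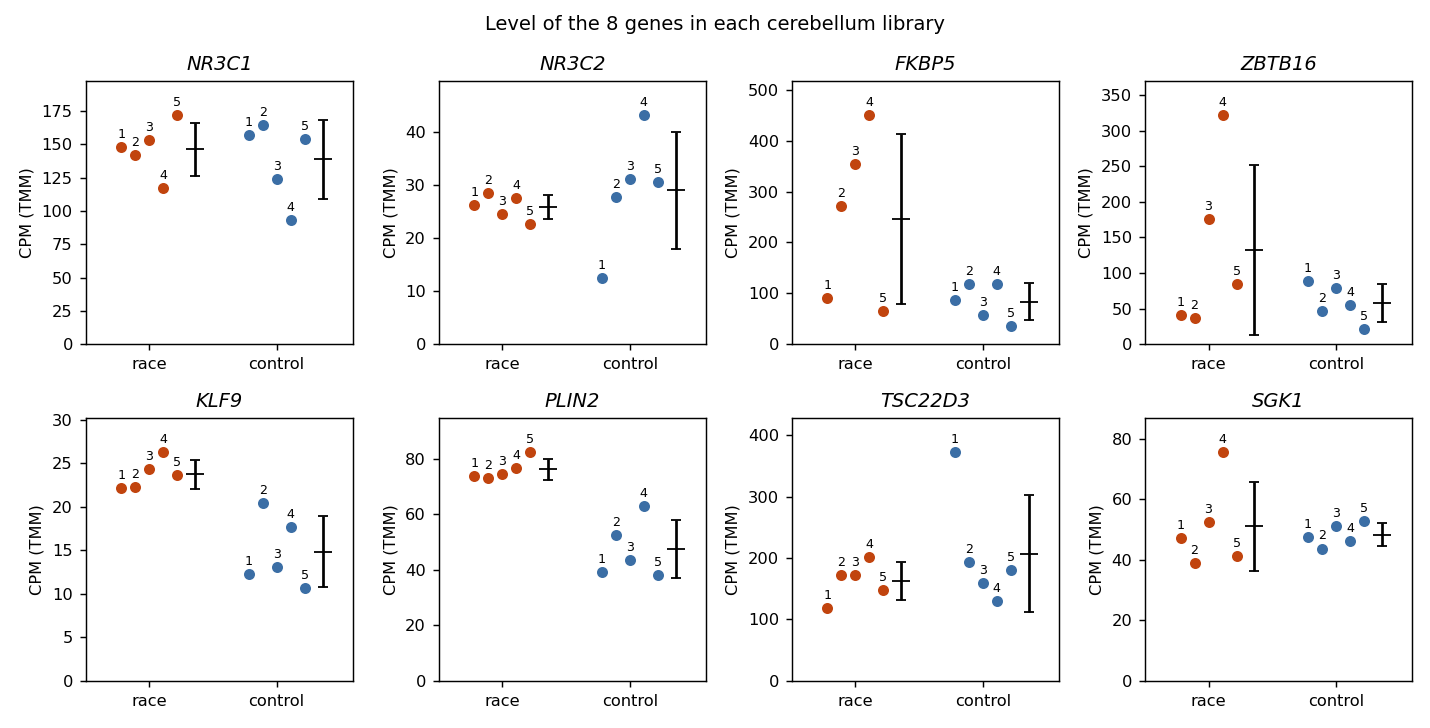
Level of each gene in CPM (vertical axes, each from 0) in the race and control libraries, with points numbered by bird and bars for the mean ± SD of 5 birds. FKBP5 and ZBTB16 spread most widely among race birds, up to 449.7 and 322 CPM in race 4, while KLF9 and PLIN2 lie close together in race birds and above every control bird.

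The receptors themselves differed little between the groups. NR3C1, the glucocorticoid receptor, was at 148, 142, 153, 117 and 172 CPM in race 1 to race 5, against 157, 164, 124, 93.6 and 154 CPM in control 1 to control 5. The groups overlapped, and the highest race library was 1.47 times the lowest. Its means were 146 ± 19.9 CPM in race and 139 ± 29.5 CPM in control libraries, and the log2 fold change of 0.08 ± 0.18 was -0.03 without control 4. Race 4, with the most FKBP5, had the least NR3C1 of the race libraries.

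NR3C2, the mineralocorticoid receptor, was at 26.2, 28.4, 24.4, 27.5 and 22.6 CPM in race 1 to race 5, against 12.4, 27.7, 31.2, 43.0 and 30.6 CPM in control 1 to control 5. The race libraries lay close together inside the control range, whose ends were control 1 and control 4. The log2 fold change was -0.17 ± 0.26, and it was 0.02 without control 4. It was 0.37 ± 0.29 with only control 1 and control 2 as controls, so no direction holds over these choices of libraries.

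The balance of both receptors was followed as the ratio of NR3C1 to NR3C2 counts within each library, which no scaling between libraries affects. This ratio is not corrected for gene length, so only its differences between libraries can be read. It averaged 5.76 ± 1.27 in race and 5.97 ± 4.02 in control libraries (SD, n = 5 each). Race libraries ran from 4.26 to 7.60, and control libraries from 2.17 in control 4 to 12.7 in control 1. The other 3 controls lay between 3.98 and 5.93.

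KLF9, a Krüppel-like transcription factor that responds to glucocorticoid and thyroid hormone, was higher in every race bird than in any control bird. It was at 22.1, 22.3, 24.3, 26.3 and 23.6 CPM in race 1 to race 5, against 12.3, 20.4, 13.1, 17.7 and 10.7 CPM in control 1 to control 5. The nearest libraries of the groups, race 1 and control 2, were 22.1 and 20.4 CPM. The log2 fold change was 0.68 ± 0.20, or 0.58 to 0.82 when 1 library was left out.

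PLIN2, which coats lipid droplets, had the same separation. It was at 73.9, 73.1, 74.5, 76.8 and 82.4 CPM in race 1 to race 5, against 39.1, 52.7, 43.7, 63.0 and 38.3 CPM in control 1 to control 5. Race libraries differed by a factor of 1.13 at most, and their SD of log2 CPM, 0.07, was larger than that of only 2.67% of tested genes. The log2 fold change was 0.68 ± 0.16. Unlike FKBP5, both KLF9 and PLIN2 were near one level in all race birds, those with little FKBP5 included.

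KLF9 and PLIN2 both lie on the Z chromosome of the RefSeq assembly, and Z-linked genes as a whole stood higher in race libraries. Of 682 Z-linked genes tested 83.6% had a positive log2 fold change, with a median of 0.45, against 45.6% and a median of -0.05 for the 13490 other genes. KLF9 and PLIN2 exceeded 73.6% and 74.2% of Z-linked genes. Every race library lay above every control library in 18.3% of Z-linked genes and in 1.86% of the others.

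Birds that express W-linked genes were found among the controls alone, in control 3, control 4 and control 5. With all 10 libraries, race against control is therefore partly a comparison of birds without and with W-linked expression. In that fit the flight and W-linked expression cannot be told apart. Without these libraries the Z-linked median was 0.47, and KLF9 and PLIN2 stood at 0.54 ± 0.24 and 0.73 ± 0.19, above 54.2% and 65.0% of Z-linked genes. The part of the Z-linked difference in the values of KLF9 and PLIN2 was not tested. With tables linked by sample title, KLF9 and PLIN2 were at -0.15 ± 0.28 and -0.043 ± 0.26, and the Z-linked median was -0.10.

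**Figure D2:**
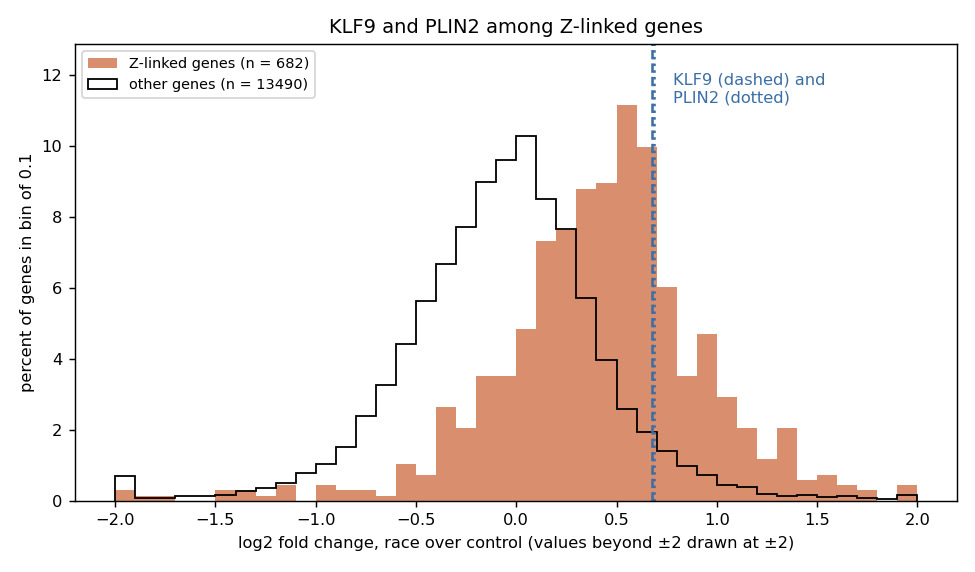
Distribution of log2 fold changes, race over control, as percent of genes in bins of 0.1, for 682 Z-linked genes (filled) and 13490 other genes (outline). The vertical lines for KLF9 and PLIN2, both at 0.68, stand in the upper part of the Z-linked genes, whose median is 0.45.

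TSC22D3, which encodes the glucocorticoid-induced leucine zipper protein GILZ, was at 119, 172, 172, 201 and 148 CPM in race 1 to race 5, against 373, 193, 159, 129.8 and 181 CPM in control 1 to control 5. Control 1 stood far above all other libraries, and the rest of both groups overlapped. The log2 fold change was -0.35 ± 0.27, and it was -0.05 without control 1 and -0.80 with only control 1 and control 2 as controls. With tables linked by sample title the means were 164 ± 27.9 CPM in race and 206 ± 97.2 CPM in control libraries. The markers of astrocytes went opposite ways in control 1. Their sum over 11 genes was 14395 CPM there and 4204 to 6359 CPM in the other 9 libraries. It came mostly through ALDOC and GFAP, at 10535 and 2675 CPM. Whether ALDOC was read from astrocytes alone cannot be told in whole cerebellum. GJA1, SLC1A3 and AQP4 were lower in control 1 than in any other library, at 263, 185 and 66.9 CPM. In whole tissue, fewer cells of a type and less RNA per cell cannot be told apart, and the part of astrocyte content in the value of TSC22D3 was not tested.

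SGK1, a kinase that raises sodium transport and is a textbook target of both receptors, was at 47.3, 38.8, 52.3, 75.5 and 41.4 CPM in race 1 to race 5, against 47.3, 43.7, 51.3, 46.2 and 52.7 CPM in control 1 to control 5. Race 4 was above all other libraries, and the other 4 race libraries lay at or below the control range's upper end. The log2 fold change was 0.08 ± 0.19 and turned to -0.11 without race 4. Control libraries differed little, with an SD of log2 CPM of 0.11 that exceeded that of only 1.64% of tested genes. With tables linked by sample title the means were 53.4 ± 13.1 CPM in race and 45.9 ± 5.01 CPM in control libraries.

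After Benjamini-Hochberg adjustment over all genes in edgeR's quasi-likelihood test, 0 of the 8 members passed a threshold of 0.05, beside 0 of 14172 genes, or 0%. At an unadjusted p under 0.05 there were 3 members, FKBP5, KLF9 and PLIN2, where 13.3% of all tested genes reached that level. All 3 were higher in race birds, as were 6.19% of tested genes at that level, and 0 members were lower, where 7.14% of tested genes were. DESeq2 called 1 member, PLIN2, where it called 1.83% of tested genes. Every race library lay above every control library in 2 members, KLF9 and PLIN2, where this held for 2.65% of tested genes. Groups without overlap in either direction were found in those 2 members and in 4.33% of tested genes. The members were chosen with this comparison known, so nothing is read from these counts. In all, 6 of the 8 log2 fold changes were above 0, where 47.4% of tested genes were.

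**Figure D3:**
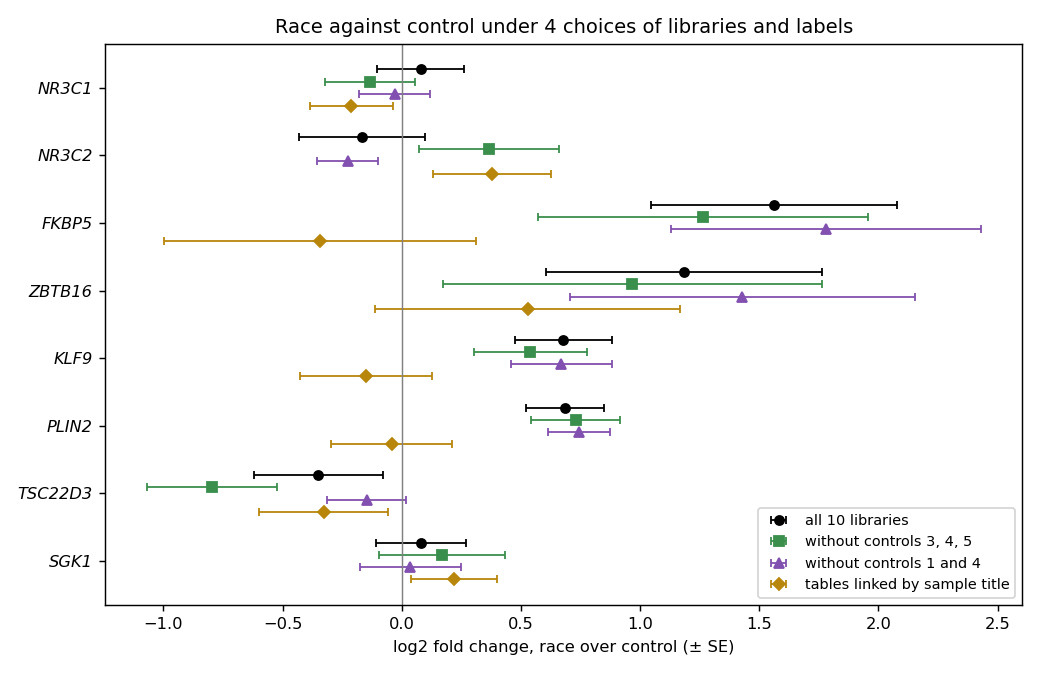
Log2 fold change, race over control, of the 8 genes (horizontal axis, bars ± SE from edgeR) in 4 fits, with all 10 libraries, without control 3, control 4 and control 5, without control 1 and control 4, and with tables linked by sample title. FKBP5, KLF9 and PLIN2 stay above 0 in the first 3 fits and stand at -0.34, -0.15 and -0.043 in the last.

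Genes whose level followed FKBP5 over the 10 libraries were ranked by Pearson's r of log2 CPM among 12601 genes, as a description with no test. The closest was TULP1, a tubby-like protein known from photoreceptors, at r = 0.996, and at the same value once group means were subtracted. TULP1 is the gene next to FKBP5 on chromosome 22 of the RefSeq assembly. It was at 31.8, 86.7, 117, 161 and 22.6 CPM in race 1 to race 5, against 37.6, 42.3, 21.8, 41.9 and 14.8 CPM in control 1 to control 5. The same 3 race birds were high as for FKBP5.

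The ratio of TULP1 to FKBP5 counts was 0.319 to 0.358 in race and 0.356 to 0.432 in control libraries, while FKBP5 itself ranged over more than an order of magnitude. Over 14013 pairs of adjoining tested genes the median r was 0.37, and 4.35% reached 0.9. Not all neighbours of FKBP5 behaved alike. MICAL1, 4 genes away on the side of TULP1, had r = 0.867, but TEAD3 and SMPD2, which lie between them, had r = 0.211 and -0.151. On the other side CLPS had too few counts to be tested, and LHFPL5 beyond it had r = 0.683. After group means were subtracted, r was 0.931 for LHFPL5, 0.834 for MICAL1, 0.397 for TEAD3 and -0.024 for SMPD2. The annotated spans of FKBP5 and TULP1 do not overlap. The look at neighbours was chosen after the values were seen.

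**Figure D4:**
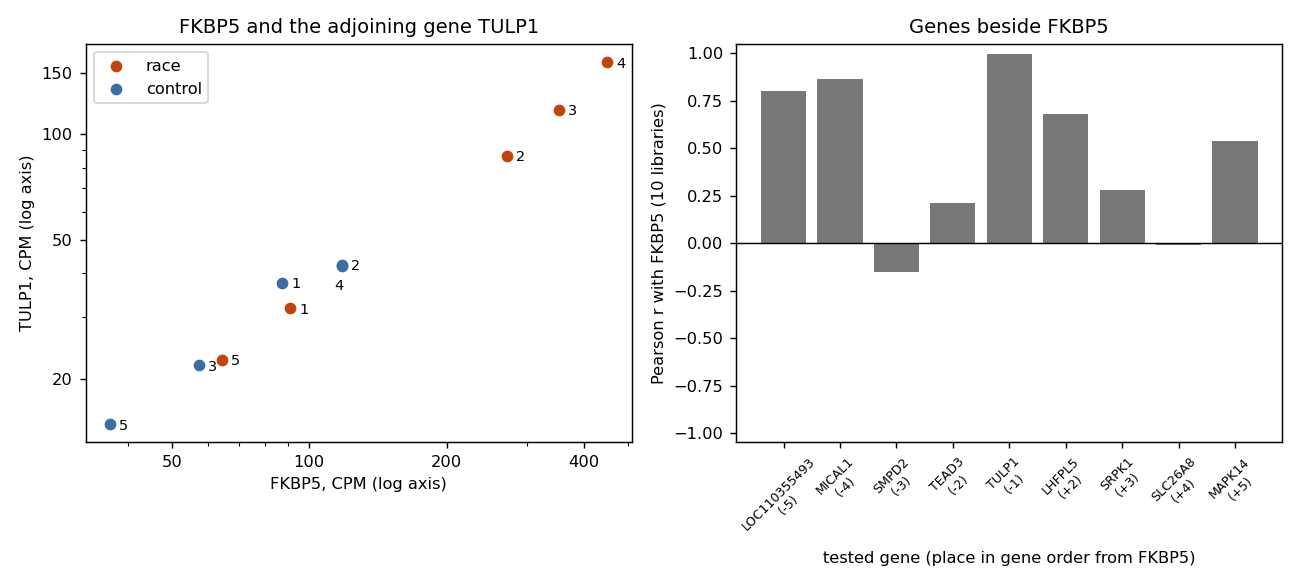
Left, TULP1 against FKBP5 in CPM on log axes, 1 numbered point per race or control library. Right, Pearson's r with FKBP5 over 10 libraries for the tested genes among the nearest 5 on each side. The points of TULP1 lie close to one line from control 5 to race 4, and r is 0.996 for TULP1 but 0.211 for TEAD3, the next gene on.

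With LOC genes left out, the next in likeness to FKBP5 were ARL9, a small GTPase, at r = 0.936, and HPSE2, a heparanase homologue, at 0.921. KCNE2, a potassium channel subunit, came next at 0.908. RGS9, a regulator of G protein signalling, ING5, SCNN1G and MICAL1 followed at 0.878, 0.874, 0.869 and 0.867. SCNN1G encodes a subunit of the epithelial sodium channel, which corticosteroids regulate in mammalian kidney. It was at 11.6, 18.4, 14.1, 17.8 and 11.5 CPM in race 1 to race 5, against 12.6, 14.5, 10.4, 12.2 and 11.05 CPM in control 1 to control 5, so its differences were small. RGS9 was at 90.7, 104, 234, 201 and 72.2 CPM in race 1 to race 5, against 61.8, 90.7, 68.6, 50.3 and 25.4 CPM in control 1 to control 5. Among the other members, r with FKBP5 was 0.735 for KLF9, 0.646 for ZBTB16, 0.623 for PLIN2, 0.341 for SGK1, 0.067 for TSC22D3, 0.027 for NR3C2 and -0.238 for NR3C1. After subtracting group means KLF9, ZBTB16 and PLIN2 stood at 0.544, 0.555 and 0.277.

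Further genes known to be induced by glucocorticoids, mainly from mammalian work, did not share one direction. Of 72 listed, 55 were in the tables and 49 were tested, of which 26 had a positive and 23 a negative log2 fold change. The median was 0.02, against -0.03 for all tested genes. None passed by edgeR's quasi-likelihood test with adjustment over all genes, and 2 higher and 3 lower genes reached an unadjusted p under 0.05, or 10.2% of the list, a smaller share than the 13.3% of all tested genes. Without control 3, control 4 and control 5 the median was -0.21, where genes not on the Z chromosome had 0.04 and Z-linked genes 0.47.

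The genes of smallest p in that list were FAM107A, FBXO32 and ADARB1. FAM107A, an actin-associated stress gene, had 0.754 to 1.77 CPM in race libraries against 35.3 CPM in control 4 and 1.36 to 3.42 CPM among its fellow controls. Its log2 fold change was -2.68 ± 0.92, and control 4, the library with forebrain transcripts, stood alone. FBXO32, the ubiquitin ligase atrogin-1 of muscle atrophy, averaged 197 ± 39.9 CPM in race and 130.1 ± 43.0 CPM in control libraries, at 0.59 ± 0.24. ADARB1, an RNA editing enzyme, averaged 257 ± 55.0 CPM in race and 184 ± 36.9 CPM in control libraries, at 0.48 ± 0.20.

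Some genes of the list had the pattern of ZBTB16, high in race 3 and race 4 but not in race 2. GLUL, glutamine synthetase of astrocytes, was at 983, 1025, 2760, 2474 and 728 CPM in race 1 to race 5, against 1550, 2357, 1004, 1082 and 884 CPM in control 1 to control 5. SESN1, a stress-induced regulator of growth signalling, was at 56.5, 49.5, 235, 180.4 and 48.4 CPM in race 1 to race 5, against 43.0, 115, 49.6, 65.5 and 45.5 CPM in control 1 to control 5. In both genes control 2 was the highest control, and the other race birds lay within or below the control values. PDK4, which slows glucose oxidation, reached 5.13 and 7.45 CPM in race 3 and race 4, and at most 2.35 CPM in the other race and 3.32 CPM in the control libraries. These genes were chosen after their values were seen.

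Counting the library in which each of the 49 genes was highest, race 4 held 10 and race 3 held 7, or 20.4% and 14.3% of the list, against 9.26% and 5.74% of all tested genes. Race 2 held 2, race 5 held 2 and race 1 held 0. Control 1 held 14, or 28.6% against 31.4% of all tested genes. DUSP1, a phosphatase of MAP kinases, was at 14.2, 21.5, 25.3, 38.8 and 12.05 CPM in race 1 to race 5, against 39.8, 22.9, 16.2, 12.2 and 32.3 CPM in control 1 to control 5. NFKBIA, the inhibitor of NF-kappa-B, was at 12.1, 10.3, 18.6, 24.6 and 10.3 CPM in race 1 to race 5, against 20.1, 19.5, 14.5, 11.2 and 14.4 CPM in control 1 to control 5. Among race birds DUSP1 was highest in race 2, race 3 and race 4 and NFKBIA in race 3 and race 4, but in both genes the groups overlapped. These 2 genes were chosen after their values were seen.

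**Figure D5:**
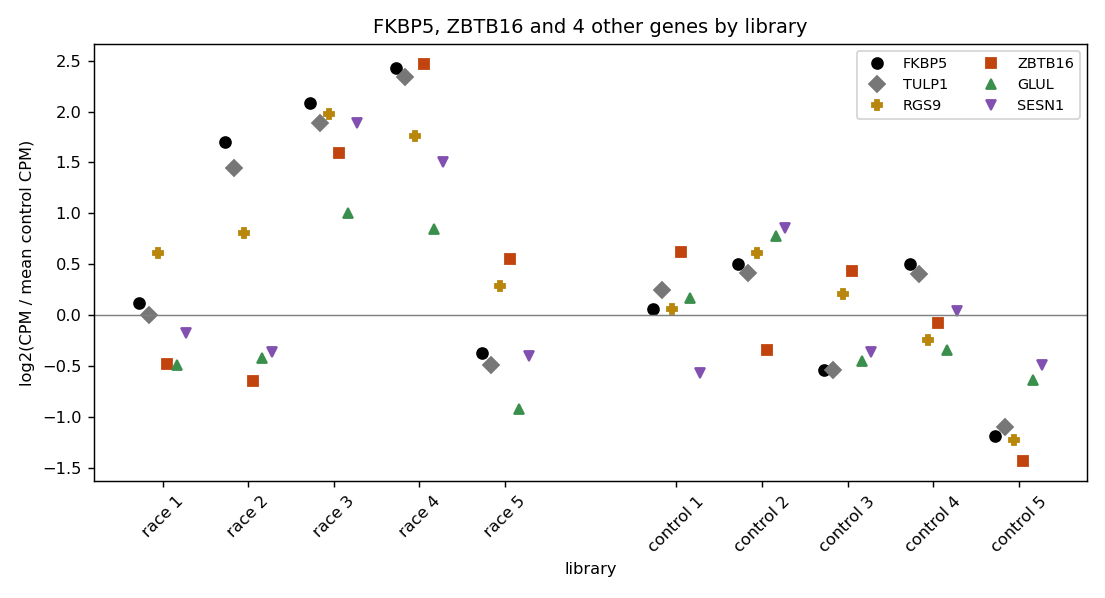
Level of FKBP5, TULP1, RGS9, ZBTB16, GLUL and SESN1 (vertical axis, log2 of CPM over the mean CPM of the 5 control libraries), with 1 point per gene in each race and control library (horizontal axis). FKBP5 and TULP1 are high in race 2, race 3 and race 4, while ZBTB16, GLUL and SESN1 are high in race 3 and race 4 and not in race 2.

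Markers of other cell types were set beside the birds with much FKBP5. Endothelial and pericyte markers, 14 genes, summed to 377, 409, 429, 395 and 218 CPM in race 1 to race 5, against 427, 317, 330, 233 and 297 CPM in control 1 to control 5. Of these 14 genes 11 had a log2 fold change above 0, where 47.4% of tested genes did, and 5 were higher at an unadjusted p under 0.05, or 35.7% against 6.19% of tested genes. Single markers differed in their pattern over the race birds. KCNJ8 and ABCC9, channel subunits of pericytes, were highest in race 2, race 3 and race 4, as FKBP5 was. KCNJ8 was at 4.26, 6.39, 8.31, 19.3 and 4.85 CPM in race 1 to race 5, against 2.86 to 4.21 CPM in control libraries. ABCC9 was at 8.36, 14.7, 12.2, 19.6 and 6.34 CPM in race 1 to race 5, against 4.10 to 9.11 CPM in control libraries. CLDN5, of endothelial tight junctions, did not have that order, at 52.6, 45.1, 55.0, 39.2 and 23.3 CPM in race 1 to race 5, against 31.1 to 86.1 CPM in control libraries. PDGFRB, also of pericytes, was lowest in race 4, at 36.7, 51.1, 31.0, 20.9 and 26.2 CPM in race 1 to race 5. RGS5, likewise of pericytes, was at 103, 126, 118, 87.0 and 64.4 CPM in these birds, with race 4 below race 1. Oligodendrocyte markers, 9 genes, ran from 1908 to 4222 CPM in race and 2651 to 5933 CPM in control libraries, with the lowest value of all in race 3. All 9 had a log2 fold change below 0, with an unadjusted p under 0.05 in 5 of them, or 55.6% against 7.14% of tested genes.

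Astrocyte markers averaged lower in the race birds with much FKBP5 when each marker was given the same weight, but single markers differed. Their mean log2 CPM was 7.57, 7.10, 6.96, 6.98 and 7.39 in race 1 to race 5, against 7.36 to 7.75 in control libraries. SLC1A2, a glutamate transporter, was at 94.6, 23.3, 14.1, 21.6 and 67.4 CPM in race 1 to race 5, against 24.9 to 67.0 CPM in control libraries. AQP4, the water channel of astrocyte endfeet, was at 164, 112, 91.7, 83.4 and 160.5 CPM in race 1 to race 5, against 66.9 to 184 CPM in control libraries. Both were lowest in race 2, race 3 and race 4 among race birds, as were S100B, FABP7, GDF10 and SLC1A3. ALDOC, whose cell source was not tested, went the other way, at 2539, 3484, 3188, 3251 and 2574 CPM in race 1 to race 5. GFAP was at 331, 497, 307, 856 and 572 CPM in these birds. SOX9 was, like GFAP, highest in race 4, and HEPACAM and GJA1 did not have the order of AQP4. The summed level, in which ALDOC weighs most, was 4620 to 5142 CPM in race libraries. It was not lower in race 2, race 3 and race 4. The markers named singly were chosen after their values were seen. Microglial markers, 6 genes, summed to 36.7 to 52.3 CPM in race and 13.5 to 60.2 CPM in control libraries, choroid plexus and meningeal markers to 43.8 to 135 and 61.4 to 168 CPM, and red blood cell markers to 9.15 to 24.8 and 11.6 to 46.0 CPM. The part of cell makeup in the values of FKBP5 and of the other members was not tested.

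The chaperones that hold the receptors before hormone binds stood mostly lower in race birds. Log2 fold changes were below 0 in 13 of 15 tested genes, where 52.6% of all tested genes were, and their median was -0.33. None passed by edgeR's quasi-likelihood test with adjustment over all genes, and 5 lower and 0 higher genes reached an unadjusted p under 0.05, or 33.3% of the list against 13.3% of all tested genes. DESeq2 called 1 of them, HSPA2, and 1.83% of all tested genes. The median was -0.04 without control 3, control 4 and control 5, and 0.34 with tables linked by sample title. In the former fit genes not on the Z chromosome had a median of 0.04.

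HSPA2, an HSP70 chaperone, was at 122, 79.3, 100.2, 54.4 and 108 CPM in race 1 to race 5, against 299.8, 77.4, 167, 266 and 311 CPM in control 1 to control 5, a log2 fold change of -1.27 ± 0.35. DNAJB1, its partner of the HSP40 class, was at -1.47 ± 0.48, with 81.4 CPM in control 1, where the other controls were at 16.6 to 25.2 CPM. PTGES3, the p23 protein that stabilises the hormone-binding state, was at -0.63 ± 0.23. It had 407 CPM in control 1, 164 to 228 CPM in the other controls and 137 to 173 CPM in race libraries. HSP90AA1, the central chaperone, was at 4451, 1740, 3017, 2505 and 4263 CPM in race 1 to race 5, against 1782, 2287, 5139, 6660 and 7146 CPM in control 1 to control 5. Its 3 highest libraries were the controls that express W-linked genes. FKBP4, the immunophilin that competes with FKBP5 for a place in the complex, was at 312, 221, 287, 329 and 370 CPM in race 1 to race 5, against 303, 323, 410, 423 and 446 CPM in control 1 to control 5, without the wide spread of FKBP5.

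Other FKBP genes mostly stood lower in race than in control birds, unlike FKBP5. Below 0 were 9 of 12 tested, where 52.6% of all tested genes were. The median was -0.33, -0.16 without control 1 and -0.02 without control 1 and control 4. FKBP4 and FKBP8 stand in both lists. FKBP1A, the target of the drug FK506, was at -0.73 ± 0.28 and FKBP3 at -0.33 ± 0.14, with FKBP8 at -0.52 ± 0.28. FKBP1A was at 771 and 517 CPM in control 1 and control 4. It was at 249 to 349 CPM in the other controls and 231 to 313 CPM in race libraries. FKBP8 was at 170 and 89.2 CPM in control 1 and control 2. The other controls had 56.2 to 64.9 CPM of FKBP8, and race libraries 55.0 to 65.5 CPM. In FKBP3 every race library, at 21.0 to 23.8 CPM, lay below every control library, at 25.8 to 33.9 CPM, as in 1.67% of all tested genes. Coregulators of nuclear receptors had a median of -0.07 over 22 genes. With an unadjusted p under 0.05, 1 of them was higher, or 4.55% against 6.19% of all tested genes. It was the Z-linked chromatin remodeller SMARCA2, at 0.48 ± 0.19. The next were MED14 and EHMT1, at 0.34 ± 0.17 and 0.36 ± 0.19.

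Of 24 listed genes that make or convert steroids, 11 were found by name in the tables and 8 were tested. Among these, 6 had a positive log2 fold change, where 47.4% of all tested genes did, and the median was 0.24. STAR, which carries cholesterol into mitochondria at the first step of steroid synthesis, was at 12.3, 27.0, 14.1, 34.7 and 23.9 CPM in race 1 to race 5, against 20.4, 8.11, 11.3, 12.5 and 4.25 CPM in control 1 to control 5, a log2 fold change of 0.98 ± 0.40. H6PD, which supplies NADPH to the enzyme that regenerates active glucocorticoid, was at 0.41 ± 0.17, and FDXR, an electron carrier for steroid synthesis, at -0.48 ± 0.26. Both STAR and H6PD were higher at an unadjusted p under 0.05, or 25% of the list against 6.19% of all tested genes. Neither passed after adjustment.

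Of 21 genes for peptides and receptors of the stress axis, 9 were tested. CRHR2, a receptor of the urocortins, was at 0.659 to 1.26 CPM in race libraries, against 45.6 CPM in control 4 and 0.965 to 2.01 CPM in control 1, control 2, control 3 and control 5. Its log2 fold change was -3.51 ± 1.09, with the library that held forebrain transcripts far above the rest, and the median of the list, -0.45, was 0.12 without control 4. CRHR1, the receptor of corticotropin-releasing hormone, was at 38.6 to 68.4 CPM in race libraries and at 181 CPM in control 1, with the remaining controls at 43.4 to 70.5 CPM. NR0B1 and ADCYAP1 were at -0.69 ± 0.34 and 0.38 ± 0.22. Among other steroid receptors 4 were tested, with ESRRG at 0.35 ± 0.24 and GPER1 at 0.35 ± 0.38.

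The families and partners of the remaining members were close to the median of all genes. For SGK1, genes of its pathway and of sodium transport had a median of -0.04 over 20 genes, with RICTOR, a Z-linked subunit of the kinase complex that activates SGK1, at 0.96 ± 0.33, KCNJ10, a potassium channel of glia, at -0.88 ± 0.32 and MTOR at 0.28 ± 0.16. RICTOR was at 71.2 to 96.6 CPM in race and 13.2 to 62.6 CPM in control libraries. KCNJ10 was at 629 CPM in control 1, 146 to 308 CPM in the other controls and 139 to 194 CPM in race libraries. Other KLF genes had a median of -0.07 over 12 genes, with KLF6, KLF4 and KLF13 at 0.37 ± 0.18, 0.86 ± 0.46 and 0.50 ± 0.27. Perilipin and lipid droplet genes had a median of -0.01 over 15 genes, with PPARA, ABHD5 and CPT1A at 0.49 ± 0.31, 0.29 ± 0.28 and 0.20 ± 0.20. None of the KLF and lipid droplet genes reached an unadjusted p under 0.05, where 13.3% of all tested genes did.

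Relatives of TSC22D3 had a median of -0.03 over 4 genes, with TSC22D1, TSC22D2 and NRBP1 at -0.13 ± 0.13, -0.05 ± 0.16 and 0.02 ± 0.29. Partners of ZBTB16, such as the ubiquitin ligase scaffold CUL3 and corepressors, had a median of 0.12 over 12 genes, with RBX1, HDAC1 and NCOR1 at -0.36 ± 0.14, 0.24 ± 0.13 and 0.29 ± 0.16. Over all 12 lists, 0 of 169 distinct genes passed by edgeR's quasi-likelihood test with adjustment over all genes, and 6 higher and 13 lower genes reached an unadjusted p under 0.05, or 11.2% against 13.3% of all tested genes.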

How the data were processed

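Per the submitters' processing notes, the tools were STAR 2.7.10a, HTSeq 0.13.5 and fastp 0.23.2, beside MultiQC 1.14 and FastQC 0.11.5. No build, annotation or strand setting is given in the sources used here. The authors deposited raw counts per gene. Rows that name no gene stayed out, and reads outside features were 15.1% to 20.8% of a library. In R 4.3.3, edgeR 4.0.16 and limma 3.58.1 were used. The filter was filterByExpr at a count of 10, scaling was by TMM, and the two-sided quasi-likelihood test had its p-values adjusted by Benjamini and Hochberg, at a threshold of 0.05. SEs were derived from the log2 fold change and the F statistic, and CPM use TMM factors. Likeness is Pearson's r of log2 CPM with a prior count of 2, for genes whose mean log2 CPM reached 1.

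Named are all members, the 3 genes of smallest p in each list, the 8 most and 4 least like FKBP5 and the 2 most like each other member, uncharacterised LOC genes left out. A few genes that this rule names are not reported here. Members and lists were chosen with earlier results of these data known. Chromosomes and gene order come from the RefSeq table of assembly bColLiv1.pat.W.v2, with 22268 of 22547 names matched. Libraries with at least 60 W-linked genes at 1 CPM counted as expressing them. Alternatives were other scalings, filters, limma voom, DESeq2 1.42.0, fits without chosen libraries, a W term and tables linked by title. The fit was tested on simulated counts. Each library is taken as a separate bird, as the labels describe, and depth limits low genes.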

Additional observations from a re-analysis of the deposited data

Results flagged for a closer look

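Libraries far from the other 4 of their group were sought in 66 sets of 5 libraries, for the 8 members in CPM, the ratio of receptor counts, and the 12 gene lists both as mean log2 CPM and as summed CPM. Chance alone marks about 1 in 20 such sets. In TSC22D3 the library control 1, at 373 CPM, stood apart from the next control at 193 CPM, a gap of 0.739 of the group's range, or 0.623 on the log2 scale, where it would not be marked.

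The other marks were in summed CPM, in which the most abundant genes of a list weigh most, and none of the lists was marked by mean log2 CPM. The stress axis list summed to 1229 CPM in control 4, the library with forebrain transcripts, and to 803 CPM in the next control. The SGK1 pathway list summed to 2988 CPM in race 4, which was also highest for SGK1 itself, and to 2669 CPM in the next race library. Control 1 and control 2 had higher sums, 3188 and 3329 CPM, with SGK1 at 47.3 and 43.7 CPM. The ZBTB16 partners summed to 1768 CPM in race 5 and to 1653 CPM in the next race library.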

How the results depend on the processing

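No paired analysis was possible because the labels number the birds of the groups without a shared number. The count of genes called over all genes was 0 in the chosen fit and 0 to 1 with 1 library left out. It was 260 with DESeq2, 3 with tables linked by title, 40 without control 1 and control 4, 3416 without the controls that express W-linked genes and 4338 with a W term. Of the genes in the 12 lists 1, 38 and 45 were called with DESeq2, without those controls and with the W term, and 0 in the other fits. In the chosen fit the lists held 169 distinct tested genes, of 14172 in all. The list counts stand beside the counts over all genes in the same fits, and nothing is read from them. For the members, 153 of 160 alternative log2 fold changes moved by less than the SD between birds. The others were NR3C2 without the controls that express W-linked genes (0.37) and with the W term (0.37), and the values by title of FKBP5 (-0.34), NR3C1 (-0.21), NR3C2 (0.38), KLF9 (-0.15) and PLIN2 (-0.043). The Z-linked median was -0.10 by title. For all of these the cause was not tested. With 1 library left out, FKBP5, KLF9, PLIN2 and ZBTB16 stayed above 0 and TSC22D3 below 0, while NR3C1, NR3C2 and SGK1 changed sign once each. Of 240 list medians 207 moved by less than the SD of the list. Of the 8 genes most like FKBP5, 4 to 6 were among the first 8 with 1 race library left out and 3 after group means were subtracted, and all 8 were among the first 100 each time. Depth was 17953704 counts or more per library, so low genes such as HPSE2 and PDK4 carry the most counting error.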

Other observations

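Among the genes least like FKBP5 over the 10 libraries were AZIN1, an inhibitor of the antizyme of polyamine synthesis, at r = -0.928, NCBP2, of the nuclear cap-binding complex, at -0.925, and CHPT1, which makes phosphatidylcholine, at -0.924. CHPT1 was at 17.8, 10.5, 9.78, 8.30 and 15.4 CPM in race 1 to race 5, against 15.8, 15.6, 19.6, 15.4 and 17.0 CPM in control 1 to control 5. It was lowest in the same 3 race birds in which FKBP5 was highest.

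For the other members the most similar genes are given with LOC genes left out. They were FCHSD2 and RNF152 for NR3C1, at r = 0.904 and 0.879. For NR3C2 they were DLG2 and RCBTB1, at 0.969 and 0.964. KLF9 was most like UHRF2 and ZNF131, at 0.977 and 0.967, and LMNB1 was among the genes most like PLIN2, at 0.982. UHRF2, ZNF131 and LMNB1 lie on the Z chromosome, as do KLF9 and PLIN2. TSC22D3 was most like MVB12A and MARS2, at 0.986 and 0.977, and SGK1 most like ST7 and ENPP1, at 0.917 and 0.883. With LOC genes left out ZBTB16 was most like NRROS and MFAP2, at 0.865 and 0.864. Its overlapping gene LOC135576276 had a higher r with it, 0.957. These are descriptions over 10 libraries that share their scaling and the features of control 1 and control 4.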
